A study of Macaca mulatta with 8 samples.

Results

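The features of the deposited count matrices named coRPGR, huRPE65 and mScarlet hold the RNA of the delivered transgenes, and GRK1 is the native macaque gene of the name that the promoter of 2 of them bears. These 4 genes were taken out of 26533 features, the transgenes because they are the last 3 features listed and GRK1 because of that promoter, whose species is not given in the sources used here. The rule itself uses no measured value, but it was drawn up with earlier results of these data known.

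Retinal cells of 2 male wild-type macaques, NHP1 at 5 years and NHP2 at 6 years of age, were measured one by one with a droplet-based 5′ RNA sequencing kit. The 8 libraries form 4 groups with 1 library per eye in each. The NHP1 group is labelled uninjected, and by the study's methods both eyes of that animal had received the vector AAV2-CAG-hRPE65. The labels do not give how far the sampled areas lay from the injected ones. From each NHP2 eye come an uninjected area, a bleb of AAV8-GRK1-hRPGR and another of AAV8-GRK1-mScarlet, a bleb being the patch of retina lifted by the subretinal injection. By the same methods all eyes received triamcinolone, left eyes also received adalimumab, and the vector doses of the blebs differed. Left eye and adalimumab therefore cannot be told apart, and neither can transgene and dose. All 6 NHP2 libraries come from 1 animal, so that p-values cover the spread between areas and eyes of this animal.

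GRK1 encodes a kinase of the visual pigments, which phosphorylates them after light activation so that arrestin can bind and end the signal, and it is used by rods and, in primates, by cones. Its short promoter is a standard part of vectors meant for photoreceptors. RPGR encodes a protein of the photoreceptor connecting cilium that is mutated in X-linked retinitis pigmentosa, and coRPGR is the human coding sequence with altered codons. RPE65 encodes the isomerase of the visual cycle in the retinal pigment epithelium (RPE), and mScarlet is a red fluorescent reporter protein. CAG is a promoter that acts in most cell types.

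The native GRK1 gene lies on chromosome 17 of the Mmul_10 build, from 94892912 to 94909323 on the plus strand, and no annotated gene overlaps it. Its nearest neighbours are ATP4B at 8753 bases before its start and TMEM255B at 20205 bases after its end.

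The libraries held 90634306 to 146519011 unique molecules (UMIs) and 9562 to 15080 cells that passed the filters, with median depths of 4606 to 6036 UMIs. After removal of likely doublets 83192 cells remained in 62 clusters, 41 of them named from fixed marker genes as X-like classes. The 21 unnamed clusters took 18.1% to 46.6% of the cells of a library. Among them, clusters 56 (87 cells) and 59 (217 cells) had coRPGR among the genes that most set them apart. They came to 95.4% and 99.1% from the right hRPGR bleb and enter no class level or share given here. Clusters that carried rod markers with little mitochondrial RNA, here called low-mito rod clusters, stayed unnamed and took 16.7% to 34.4% of the cells of a library. They are given apart from the rod-like class. Cones were not divided in this way, and cluster 28, with 541 cells and a median mitochondrial share of 0.105%, stayed cone-like. Comparisons of cone-like with rod-like cells therefore include such a cluster on the cone-like side only. The largest share of rod-like cells lay in cluster 30 in the NHP2 uninjected areas and the left hRPGR bleb, cluster 43 in the right hRPGR bleb, cluster 45 in the mScarlet blebs, and clusters 12 and 6 in the right and left NHP1 libraries. Any pair of libraries shared 135 to 255 cell barcodes, where independent draws would give 135 to 265. Free RNA, the RNA of broken cells that enters every droplet, was measured in barcodes with 100 to 1000 UMIs.

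The question was first which library held which transgene. Over all barcodes, coRPGR had 415470 UMIs in the right hRPGR bleb and 119813 in the left. The mScarlet blebs held 16134 mScarlet UMIs (right eye) and 13357 (left eye). In the library labelled uninjected of the left NHP1 eye huRPE65 had 56451 UMIs, against 16 in the right NHP1 library and 17 in the left uninjected area of the other animal. The right NHP2 library labelled uninjected held 18290 coRPGR UMIs, against 1 in the left one. The right mScarlet bleb held 2127 coRPGR UMIs, and the left 32. Thus coRPGR and mScarlet were highest in the blebs labelled with them, and 2 libraries labelled uninjected held far more UMIs of a transgene than the others of that label.

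**Figure D1:**
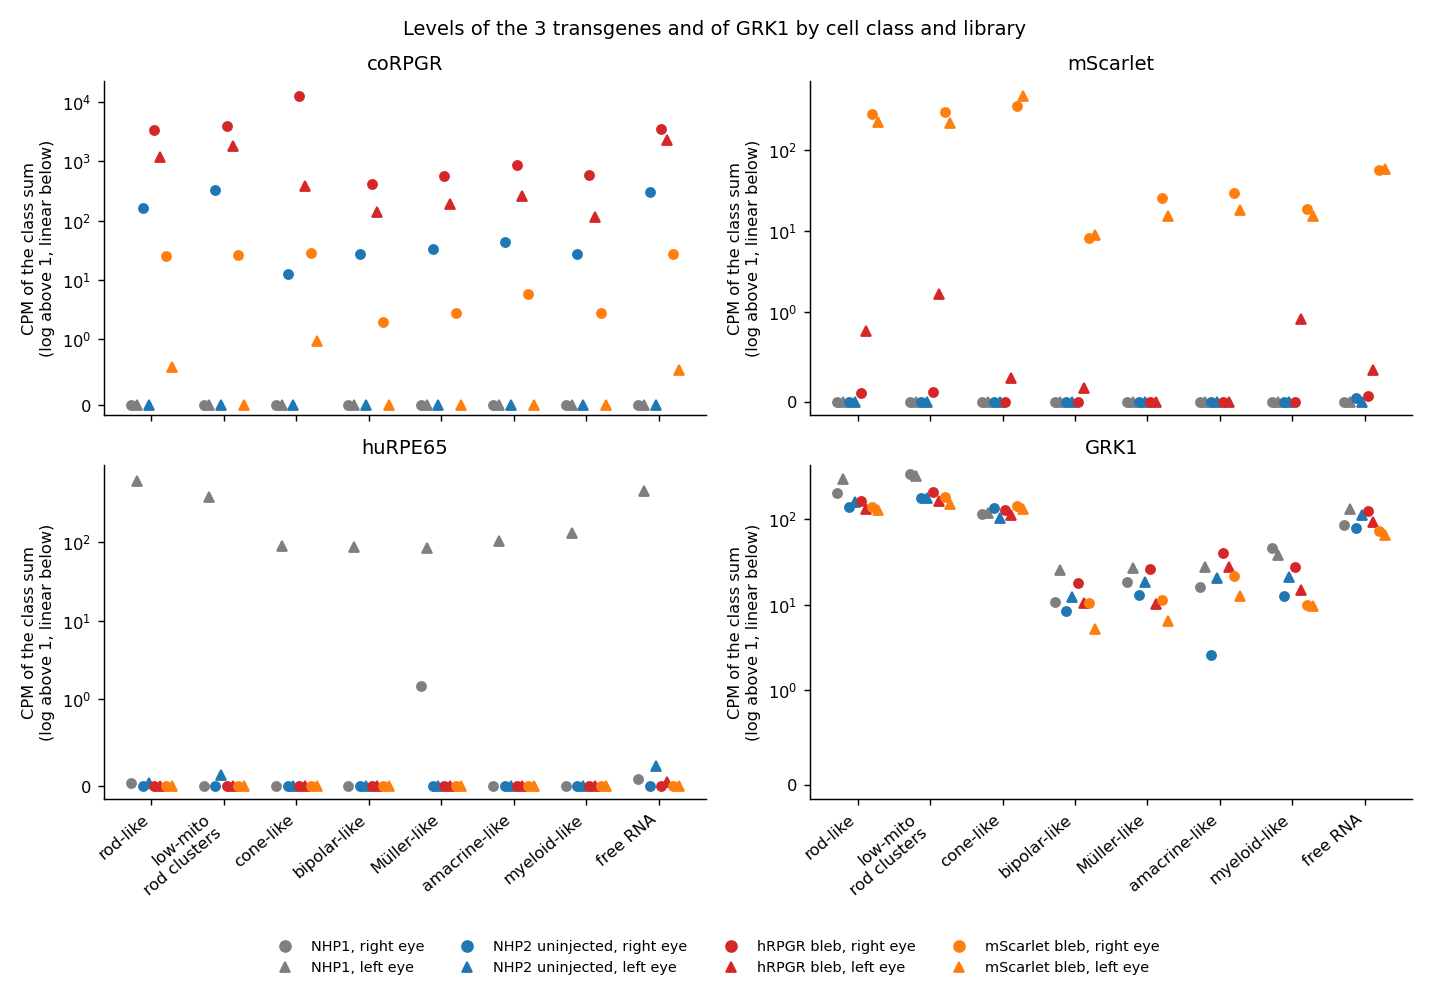
Level of each transgene and of GRK1 by cell class (x axis) in CPM, the UMIs of a gene per 1000000 UMIs summed over the class (y axis, logarithmic above 1 and linear below), with 1 point per library, circles for right and triangles for left eyes. mScarlet stands at 224 to 462 CPM in rod-like and cone-like cells of the mScarlet blebs, coRPGR at 389 to 12422 CPM in those of the hRPGR blebs, and GRK1 at 102 to 291 CPM in rod-like and cone-like cells of all 8 libraries.

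In rod-like cells, coRPGR made up 3400.4 CPM in the right hRPGR bleb (95% Poisson interval 3376 to 3425, which like all intervals of levels and shares here covers counting error only) and 1184 CPM in the left (1171 to 1197). The mean was 2292 ± 1567 CPM (SD, n = 2). In the NHP2 uninjected areas the right eye had 165 CPM and the left 0 of 26286048 UMIs, which allows up to 0.114 CPM. The right mScarlet bleb held 24.9 CPM and the left one 0.578 CPM. Both hRPGR blebs were above every other library, and right eyes were above left eyes in each of the 3 areas.

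In cone-like cells, coRPGR reached 12422 CPM in the right hRPGR bleb and 389 CPM in the left (mean 6406 ± 8508, SD, n = 2). The uninjected areas had 12.4 and 0 CPM, and the mScarlet blebs 28.5 and 0.976 CPM. The right hRPGR bleb thus held 3.65 times more coRPGR per UMI in cone-like than in rod-like cells, and the left 3.04 times less. The difference between the eyes in this ratio was not tested, since each eye is 1 library. There were 296 cone-like cells in the right bleb and 189 in the left.

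Rod-like cells held 279 CPM of mScarlet in its right bleb and 224 CPM in its left one (mean 252 ± 38.9, SD, n = 2). In cone-like cells it stood at 351 and 462 CPM (mean 406 ± 78.1, SD, n = 2). Cone-like cells were above rod-like cells in both eyes, by 1.26 and 2.06 times. Both uninjected areas were at 0 UMIs, so that the rod-like level was at least 2448-fold and 1967-fold higher than the limit of 3 counts in the left uninjected library, and the cone-like level at least 675-fold and 887-fold higher. The hRPGR blebs held at most 0.788 CPM of mScarlet in rod-like cells.

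Across all genes, edgeR called mScarlet in the mScarlet bleb against the uninjected area, with an adjusted p of 0.0157 in rod-like cells and 1.59e-05 in cone-like cells. In those comparisons 0.904% of 14044 genes (0.705% higher and 0.199% lower in the bleb) and 1.4% of 11502 genes (0.939% and 0.461%) were called. Against the hRPGR bleb the adjusted p of mScarlet was 0.0246 in rod-like cells (0.0832 with the eye as a block) and 4.25e-05 in cone-like cells, where 0.0214% (0.0142% higher, 0.00712% lower) and 0.226% of genes (0.2% higher, 0.0261% lower) were called. When either mScarlet library was left out, the rod-like call of mScarlet against the uninjected area was lost (adjusted p = 0.0942 without the right and 0.159 without the left), and so was that against the hRPGR bleb (0.199 and 0.249). The fitted log2 fold changes against the uninjected area were 15.56 and 15.88, beside 15.71 on all libraries. Both uninjected libraries held 0 mScarlet UMIs, so the size of these values depends on the prior count and their steadiness shows nothing. Against the hRPGR bleb the fitted values moved little, at 8.85 and 9.19 beside 9.03. Each of these fits leaves 1 library in an arm, which is assumed to vary like the other groups.

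coRPGR was not called in the hRPGR bleb against the uninjected area by edgeR. In rod-like cells the log2 fold change was 4.72 (SE 2.24, 95% interval -0.60 to 10.05, adjusted p = 1.00), and edgeR called 0 genes, 0%, while 533 genes, 3.8%, had an unadjusted p under 0.05 and DESeq2 called 45. In cone-like cells it was 9.92 (SE 1.96, 95% interval 5.45 to 14.39, adjusted p = 0.255), where 0.0261% of genes were called. With the eye as a block the cone-like log2 fold change was 10.04 (SE 0.33, adjusted p = 6.99e-05), and DESeq2 gave an adjusted p of 0.122. In cone-like cells of the mScarlet against the hRPGR bleb, coRPGR stood at -8.63 on the log2 scale (SE 1.83), with an adjusted p of 0.196 and of 1.25e-04 under the block. Without the left hRPGR bleb the adjusted p of coRPGR in cone-like cells was 0.0149 there and 0.00781 against the uninjected area, with log2 fold changes of -9.57 and 10.87, but the hRPGR arm is then 1 library whose spread is taken from the other groups. Without the right uninjected area, which held coRPGR, the fitted log2 fold change rose to 18.83 in rod-like cells (adjusted p = 0.869) and 17.90 in cone-like cells (0.577), again with 1 library in that arm. These fits are against a library at 0 CPM, so their size depends on the prior count and is no bound. The uninjected libraries that enter these values hold 165 and 0 CPM in rod-like cells and 12.4 and 0 CPM in cone-like cells. Against the right uninjected area, the rod-like coRPGR level was 20.6 times higher in the right hRPGR bleb and 7.15 times in the left, and the cone-like level 999 and 31.3 times.

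Native GRK1 was set beside these values. Its rod-like level, right eye first, was 137 and 159.7 CPM for the NHP2 uninjected areas, 164 and 133 CPM for hRPGR blebs, and 140.2 and 129 CPM for mScarlet blebs. The 3 areas overlapped, with means of 148 ± 16.2, 148 ± 22.1 and 134 ± 8.12 CPM (SD, n = 2). The NHP1 libraries were higher, at 201 and 291 CPM, and belong to another animal. Its cone-like level was 133 and 102 CPM for the uninjected areas, 126 and 113 CPM for hRPGR blebs, 143 and 131 CPM for mScarlet blebs, and 114 and 117 CPM for NHP1. These also overlapped between areas, except that the hRPGR blebs lay below the mScarlet blebs in plain CPM. On the normalised scale of the fits these blebs overlapped in cone-like cells, at 127 and 118 CPM against 138 and 123. On that scale the rod-like values of the mScarlet blebs, 141 and 126 CPM, lay below the 143 and 156 of the uninjected areas. With 2 libraries per area such orders depend on the scale.

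edgeR did not call GRK1 in any of the area comparisons. In rod-like cells the log2 fold change was -0.17 for mScarlet bleb against uninjected area (SE 0.13, 95% interval -0.47 to 0.13, adjusted p = 0.503). For hRPGR bleb against uninjected area it was -0.016 (SE 0.13, interval -0.31 to 0.28, adjusted p = 1.00), and for mScarlet against hRPGR bleb -0.15 (SE 0.13, interval -0.45 to 0.15, adjusted p = 0.774). Without the right hRPGR bleb the latter was -0.0032 and without the left one -0.28, with no call. For mScarlet bleb against uninjected area the range with 1 library left out was -0.25 to -0.092. In cone-like cells the 3 values were 0.10 (SE 0.15, interval -0.24 to 0.44), 0.0099 (SE 0.15, interval -0.33 to 0.35) and 0.092 (SE 0.15, interval -0.25 to 0.43). A change of GRK1 within these intervals was not detectable with 2 libraries per area.

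For the partners of GRK1 in phototransduction the calls depended on the fit. Of 36 listed genes, 33 were tested in each area comparison, and edgeR with its filter on low counts called none in rod-like or cone-like cells when all libraries entered at the doublet share used. At an unadjusted p under 0.05 this fit had 2 higher and 16 lower for mScarlet bleb against uninjected area in rod-like cells, where 20.6% of all genes were at such a p, and 0 higher and 4 lower in cone-like cells, where 16.5% were. For the same rod-like comparison DESeq2 called 1 higher and 6 lower, beside 4.92% and 3.46% of all genes in that fit. edgeR without the filter called 1 and 9, beside 3.61% and 1.69%. With the filter kept but 1 hRPGR library left out, right or left, edgeR called 1 and 5 each time, beside 4.64% and 1.83% or 4.47% and 1.73%, and at a doubled doublet share 1 and 1, beside 1.36% and 0.444%. In cone-like cells edgeR without the filter called 11 lower for mScarlet bleb against uninjected area, beside 2.65% of all genes, and 5 lower against the hRPGR bleb, beside 0.782%. With the filter and without the right mScarlet library it called 2 lower against the uninjected area, beside 0.146%. In each of the remaining settings and area comparisons at most 1 of the listed genes was called. The list mixes rod and cone genes, so counts and medians in either class take in genes of the other photoreceptor type. In rod-like cells PDE6H, a cone gene, had 10.6 and 81.0 normalised CPM in the uninjected areas and 8.45 and 4.74 in the mScarlet blebs. PDE6G, a rod gene, had 8689 and 6410 against 4649 and 3890. Other listed genes went the other way, with GNB3 at 265 and 242 against 575 and 643. PPEF2 stood at 254 and 269 against 316 and 353. The part of RNA from the other type was not tested. The median log2 fold change of the list in rod-like cells was -0.43 for mScarlet bleb against uninjected area, -0.20 for hRPGR bleb against uninjected area and -0.22 for mScarlet against hRPGR bleb, beside medians of -0.0035, -0.0034 and -0.00099 over all genes tested. In cone-like cells the medians were -0.21, -0.10 and -0.18. These medians rested in part on single libraries. Without the right uninjected area the first and second rod-like ones were -0.27 and -0.055, and without the left one the second was -0.12. The second was -0.077 without the right hRPGR bleb, and the third was -0.12 without the left one and -0.15 without the left mScarlet bleb. In cone-like cells the first became -0.35 and -0.13 without the right and left mScarlet bleb, and the third -0.030 without the right hRPGR and -0.014 without the left mScarlet bleb. The second turned to 0.021 without the left hRPGR bleb, and was -0.068 and -0.063 without the right and left uninjected area. Of the 11 listed photoreceptor transcription regulators, which include CRX, NRL, NR2E3 and OTX2, edgeR called none on all libraries, with 2 higher and 3 lower at an unadjusted p under 0.05 for mScarlet bleb against uninjected area in rod-like cells. DESeq2 called 2 higher and 1 lower there, and 1 lower in cone-like cells, beside 1.26% of all genes. edgeR called 1 higher in that rod-like comparison when either hRPGR library was left out. Without the filter it called 1 higher in rod-like cells, and 1 higher and 1 lower in cone-like cells, beside 3.25% and 2.65%.

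The ratio of transgene to GRK1 UMIs differed between vectors, classes and eyes. Rod-like cells held 20.8 coRPGR UMIs per GRK1 UMI in the right hRPGR bleb and 8.93 in the left. Cone-like cells held 98.3 and 3.45. The mScarlet blebs had 1.99 and 1.74 mScarlet UMIs per GRK1 UMI in rod-like cells and 2.46 and 3.53 in cone-like cells. In the right hRPGR bleb, coRPGR was 53.2 times native RPGR in rod-like cells and 164 times in cone-like cells. In the left it was 16.2 and 6.13 times. Native RPGR itself ranged from 57.9 to 74.0 CPM in rod-like cells and from 47.5 to 76.1 CPM in cone-like cells over all 8 libraries. These UMIs of a 5′ library were not divided by length.

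Shares of cells with a transgene UMI were taken at 3000 UMIs drawn at random from every cell, called thinning below, which left out shallower cells. For coRPGR the share in rod-like cells was 97.0% in the right hRPGR bleb (exact Clopper-Pearson 95% interval 96.3 to 97.6) and 61.4% in the left (59.9 to 63.0). Bipolar-like cells of the same libraries, which are not photoreceptors, had 54.6% and 22.5%. Their median depth before thinning was 7596 and 7586 UMIs, against 5823.5 and 6344 in rod-like cells. In cone-like cells, at median depths of 17119 and 20379 UMIs, the shares were 99.6% (97.9 to 100.0) and 34.0% (27.3 to 41.3). All 4 shares were above those of the bipolar-like cells beside them. Without thinning they were 98.0%, 72.5%, 100.0% and 66.1%, and those of the bipolar-like cells 81.8% and 43.8%.

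For mScarlet the share in rod-like cells was 46.5% for the right mScarlet bleb (44.7 to 48.3) and 40.8% for the left (39.1 to 42.5). Cone-like cells had 50.9% (44.8 to 57.0) and 70.9% (62.4 to 78.4). Bipolar-like cells had 1.43% and 1.34%, at median depths of 7034 and 6534 UMIs against 6525 and 5958 in rod-like and 22576 and 23857 in cone-like cells. Unthinned shares were 61.4% and 57.3% for rod-like, 90.4% and 91.9% for cone-like and 3.83% and 3.59% in bipolar-like cells. The mScarlet blebs therefore had a far lower background in bipolar-like cells than the hRPGR blebs. In the right uninjected area of NHP2, 14.1% of rod-like cells (13.2 to 15.1) had a coRPGR UMI. The shares there were 6.00% in bipolar-like and 2.25% in cone-like cells. Without thinning, 28 of 368 cone-like cells held 78 coRPGR UMIs, with up to 13 in a cell. Whether single cone-like cells carried the transgene was not tested.

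GRK1, at a lower level, was found in 28.7% to 55.7% of thinned rod-like cells and 25.0% to 36.2% of thinned cone-like cells over the 8 libraries. Its counts were spread nearly as a Poisson law of the same mean would spread them. The variance divided by the mean (Fano factor, 1 for a Poisson law) was between 1.05 and 1.16 in rod-like cells and between 0.849 and 1.19 in cone-like cells. The transgenes were more unequal between cells. For coRPGR in rod-like cells it was 10.4 in the right hRPGR bleb and 8.78 in the left, and in cone-like cells 29.1 and 8.37. For mScarlet the factor was 1.65 and 1.59 (rod-like) and 2.03 and 1.84 (cone-like), in each case above GRK1 in the same cells. The Fano factor rises with the mean, but mScarlet means per thinned rod-like cell, 0.808 and 0.670, lay below the 0.878 of GRK1 in the left NHP1 library, which had a factor of 1.16.

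**Figure D2:**
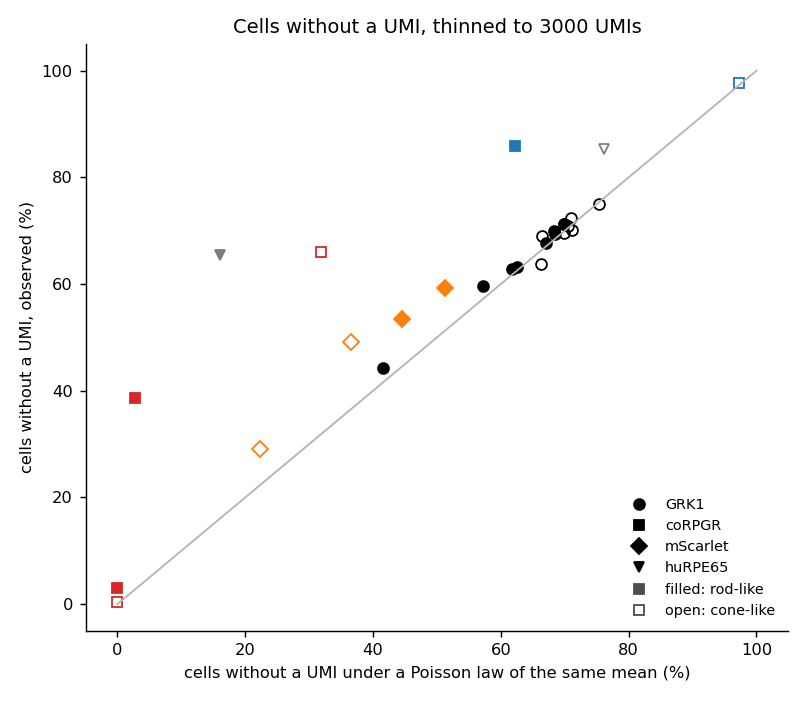
Percent of thinned cells without a UMI of a gene (y axis) against the percent that a Poisson law of the same mean gives (x axis), with 1 point per library, class and gene, on the grey line where the values are equal. GRK1 (black circles) lies near the line in all 8 libraries, and the transgenes (coloured) lie at or above it, as in the left hRPGR bleb with 38.6% of rod-like cells without coRPGR against 2.82%.

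Single cells of a library could hold many transgene UMIs. In the left hRPGR bleb the median rod-like cell had 1 coRPGR UMI of 3000, the highest 10% of cells had at least 11 and held 48.4% of all coRPGR UMIs, and the highest cell had 37. In the right hRPGR bleb the median was 7, the level of the highest 10% 23 and the highest cell 150. In the right uninjected area the median was 0 and the highest 10% of rod-like cells held 91.3% of coRPGR, with up to 31 UMIs in a thinned cell and 79 in an unthinned one. In the mScarlet blebs the highest 10% held 42.0% and 44.4% of mScarlet, and the highest cells had 12 and 8 UMIs.

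The next question was whether rods and cones with more transgene also held more GRK1. Within thinned rod-like cells the Spearman correlation of coRPGR with GRK1 was 0.046 over 2879 cells of the right hRPGR bleb and 0.0096 over 3852 cells of the left. For mScarlet it was 0.0083 over 2995 cells and 0.011 over 3265 cells. In cone-like cells it was -0.023 and 0.041 for coRPGR (265 and 188 cells) and 0.00038 and 0.064 for mScarlet (275 and 134 cells). The cells of a library share their library, depth and free RNA, and values this small in sparse counts are no finding. Among genes found in at least 10% of the same cells, GRK1 stood at the 78.1, 60.2, 48.2 and 57.5 percentiles of correlation with the transgene in rod-like cells, and at the 39.8, 70.0, 49.4 and 76.0 percentiles in cone-like cells.

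The picture was different without thinning. In unthinned rod-like cells the correlation with GRK1 was 0.363 and 0.0737 for coRPGR and 0.258 and 0.231 for mScarlet. In the same cells depth itself correlated with GRK1 at 0.506, 0.445, 0.492 and 0.512 and with the transgene at 0.620, 0.127, 0.513 and 0.434. In a band of 4000 to 6000 UMIs the values were 0.161 and 0.112 for coRPGR, and 0.041 and 0.017 for mScarlet, over 628 to 749 cells. With the cells cut into 3 equal groups by mitochondrial share they lay between -0.047 and 0.062 for thinned rod-like cells of the 4 injected areas.

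Mean GRK1 per thinned rod-like cell was then set beside transgene UMIs. In the right hRPGR bleb it was 0.407 in the 86 cells with no coRPGR UMI, 0.404 at 1 to 2 UMIs, 0.457 at 3 to 5, 0.499 at 6 to 10, 0.526 at 11 to 20 and 0.520 above 20. Median depth before thinning rose with these groups from 6116 to 7448 UMIs, and the median mitochondrial share fell from 0.895% to 0.726%. In the left hRPGR bleb mean GRK1 had no steady order, at 0.382, 0.369, 0.361, 0.429, 0.353 and 0.408 in the same groups. In the mScarlet blebs it was 0.381 and 0.354 in cells without mScarlet and 0.350 and 0.432 at 3 to 5 UMIs. Low-mito rod clusters of the right hRPGR bleb had 0.556 at no coRPGR UMI, 0.683 at 1 to 2 and 0.642 above 20. Those of the left had 0.513, 0.555 and 0.464 in these groups.

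**Figure D3:**
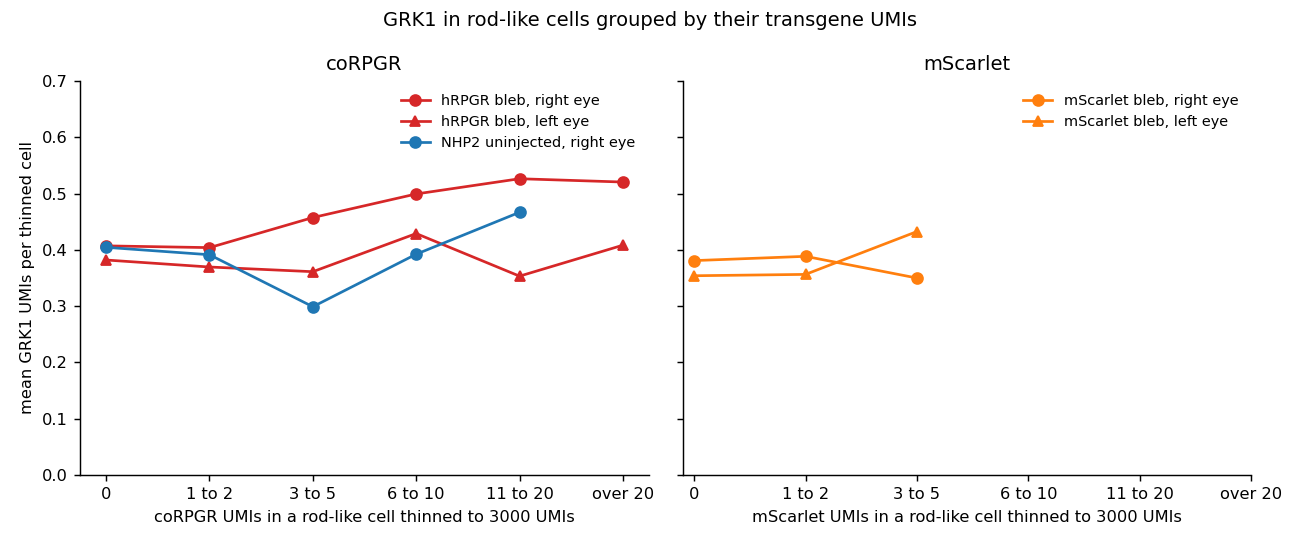
Mean GRK1 UMIs per rod-like cell thinned to 3000 UMIs (y axis) in cells grouped by their coRPGR (left panel) or mScarlet UMIs (right panel, x axes), with 1 line per library and groups of at least 20 cells. GRK1 goes from 0.407 to 0.520 in the right hRPGR bleb and from 0.382 to 0.408 in the left.

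Over libraries, cells above the median of their library's transgene were tested against cells at or below it, with the library as a block. In rod-like cells that median was 7 and 1 coRPGR UMIs in the right and left hRPGR blebs and 0 mScarlet UMIs in both mScarlet blebs. In cone-like cells it was 31, 0, 1 and 1 in the same order. Where the median was 0 the split set cells with a UMI against cells without one, and the fit pools these libraries with the others. In rod-like cells mean GRK1 of high and low cells was 0.524 and 0.443 (right hRPGR bleb), 0.384 and 0.376 (left hRPGR), 0.382 and 0.381 (right mScarlet) and 0.365 and 0.354 (left mScarlet). It was higher in the high cells of 4 of 4 libraries, by amounts that edgeR did not separate from 0 (log2 fold change 0.028, SE 0.058, 95% interval -0.090 to 0.15, adjusted p = 0.978). Without the right hRPGR bleb the log2 fold change was -0.011. In cone-like cells mean GRK1 was 0.377 and 0.444, 0.375 and 0.323, 0.324 and 0.357, and 0.383 and 0.322 for high and low cells in the same order of libraries. The log2 fold change was -0.0078 (SE 0.21, 95% interval -0.41 to 0.40, adjusted p = 1.00). The high rod-like cells were also deeper before thinning in 3 of the 4 libraries, with median depths of 7273 and 6728 UMIs in high and low cells of the right hRPGR bleb and 6720 and 7348 in the left, and the part of depth in these values was not tested.

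Few other genes passed in that split. In rod-like cells edgeR called 3 of 11379 genes, 0.0264% (0.00879% higher and 0.0176% lower in the high cells), named here after their values were seen. HBE1 and HBA, both haemoglobin chains, were lower in the high cells by log2 fold changes of -8.49 (SE 0.29) and -3.46 (SE 0.35). ENSMMUG00000058581 was higher by 2.16 (SE 0.39). No gene was called higher on full counts, with DESeq2 or for the highest against the lowest 25% of cells. The same held without the right hRPGR or the left mScarlet bleb, while the remaining settings called at least 1 higher. Of the 30 phototransduction genes tested edgeR called none, with 1 lower at an unadjusted p under 0.05 (4.74% of all genes were at such a p), and their median was -0.038. In cone-like cells 7 of 6116 genes were called, 0.114%, all lower in the high cells, and 2 of the 29 phototransduction genes tested were among them. These were OPN1SW, the opsin of blue-sensitive cones (log2 fold change -1.08, SE 0.25, adjusted p = 0.0398), and SAG, the rod arrestin (-0.96, SE 0.21, adjusted p = 0.0317). At an unadjusted p under 0.05 the list had 1 higher and 8 lower of the 29, beside 206 of 6116 genes in all. The list's median was 0.013, beside 0.0032 over all genes, so the median does not show these lower genes. Without the right mScarlet bleb edgeR called 0 genes, with 191 at an unadjusted p under 0.05, and DESeq2 called 0 on all 4 libraries, with 16.

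Cone-like cells were therefore also grouped by whether they held more OPN1SW or more OPN1LW UMIs, OPN1LW being the opsin of long-wavelength cones. This grouping was made for description, and libraries with under 10 cells of a group gave no value. In the right mScarlet bleb mScarlet averaged 0.405 UMIs per thinned cell over 42 cells with more OPN1SW and 1.17 over 213 cells with more OPN1LW. GRK1 averaged 0.333 and 0.352 in the same groups. In the right hRPGR bleb coRPGR averaged 30.5 over 23 cells with more OPN1SW and 38.3 over 192 with more OPN1LW, with GRK1 at 0.174 and 0.411. The left blebs had too few cells with more OPN1SW. Other libraries with a transgene went either way, with huRPE65 in the left NHP1 library at 0.297 over 74 cells with more OPN1SW and 0.284 over 409 with more OPN1LW. In the right uninjected area coRPGR was at 0.0286 over 35 and 0.0181 over 276 cells, and in the right mScarlet bleb at 0 over 42 and 0.0939 over 213. These differences were not tested, and those of the blebs rest on 1 eye per vector.

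The levels of transgene and GRK1 were then followed over depth in rod-like cells. A Poisson regression of UMIs on log depth gives a slope of 1 where the level does not change with depth. GRK1 slopes were 1.24 and 1.33 (hRPGR blebs) and 1.24 and 1.32 (mScarlet blebs). coRPGR had 1.17 and 0.952 and mScarlet 1.26 and 1.07. Deeper rod-like cells thus held somewhat more GRK1 per UMI. Between the shallowest and the deepest of 5 equal groups of cells, GRK1 went from 1.35 to 1.79 UMIs per 10000 in the right hRPGR bleb and from 1.03 to 1.59 in the left. coRPGR went from 25.2 to 35.6 and from 12.1 to 10.4, while mScarlet went from 1.97 to 3.12 (right bleb) and from 1.82 to 2.19 (left bleb). The median mitochondrial share fell over the same groups, from 1.87% to 0.659% in the right hRPGR bleb and similarly in the others, and its part in the slopes was not tested.

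**Figure D4:**
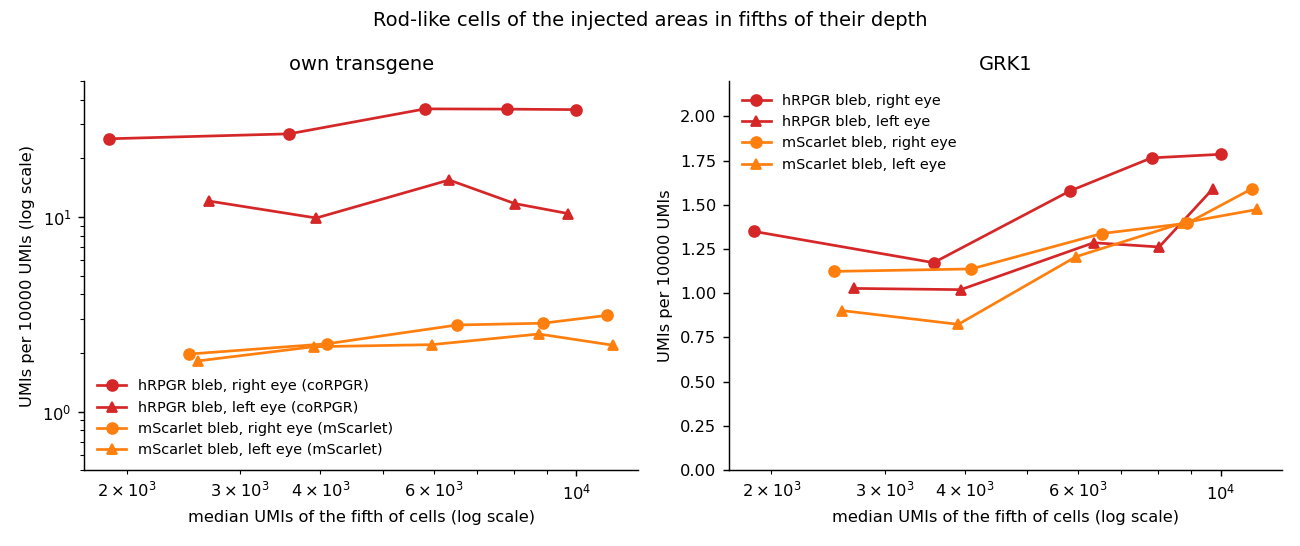
Transgene (left panel, logarithmic y axis) and GRK1 (right panel, linear y axis) in UMIs per 10000 UMIs of rod-like cells cut into 5 equal groups by depth, against the median depth of the group (logarithmic x axis), with 1 line per injected library. GRK1 is higher in the deepest than in the shallowest group of all 4 libraries, and coRPGR of the left hRPGR bleb is lower, at 10.4 against 12.1.

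In cone-like cells the slopes were 0.812 and 0.876 for coRPGR, 1.20 and 1.27 for mScarlet, and 0.693, 0.958, 1.27 and 1.30 for GRK1 in the order of right and left hRPGR and right and left mScarlet blebs. Low-mito rod clusters had lower transgene slopes than rod-like cells, at 0.575 and 0.686 for coRPGR and 0.559 and 0.263 for mScarlet. Of 5 equal groups by depth, the deepest held the least transgene per UMI in these clusters of all 4 libraries, and the other groups had no common order. Their transgene levels were 3881 and 1808 CPM of coRPGR and 297 and 218 CPM of mScarlet, and their GRK1 was between 149.6 and 334 CPM over the 8 libraries.

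The genes whose thinned UMIs were most like the transgene's differed between libraries. In rod-like cells of the right hRPGR bleb they were PCDH15, NTM, CADM2, RIMS2 and DMD, at Spearman correlations of 0.217 to 0.190. PCDH15 is a protocadherin of the photoreceptor and RIMS2 a protein of the synaptic active zone. In the mScarlet blebs SAG led in both eyes, at 0.117 and 0.108, followed in the left eye by PDE6G and PDE6A, subunits of the rod phosphodiesterase. In the left hRPGR bleb the leaders were MHC class I genes, Mamu-B at 0.368, ENSMMUG00000064139 at 0.367 and MAMU-A at 0.338, then PZP at 0.314 and B2M, the light chain of MHC class I, at 0.299. Genes of the MHC are near copies of each other and may share reads. GRK1 was among the 5 leaders in no injected library and class.

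B2M was therefore followed over groups of cells. In the left hRPGR bleb, mean B2M per thinned rod-like cell was 0.186 at no coRPGR UMI, 0.559 at 1 to 5, 0.818 at 6 to 10 and 0.848 above 10. In the right hRPGR bleb it was 1.67, 1.62, 1.51 and 1.35 in the same groups, and in the mScarlet blebs it was 2.83 and 3.32 without and 2.98 and 3.47 with 1 to 5 mScarlet UMIs. Cells of the left hRPGR bleb fell into several rod-like clusters, of which cluster 43 averaged 7.73 coRPGR and 1.27 B2M UMIs and cluster 30 averaged 2.60 and 0.139. Mean GRK1 was 0.418 and 0.392 in these clusters. Cluster 43 held 31.6% of the high cells and 6.77% of the low ones. Within clusters 43 and 30 the correlation of coRPGR with B2M was -0.045 and 0.103, and in the other 3 it was 0.112 to 0.183. In the left NHP1 library B2M averaged 0.190, 0.302, 0.810 and 0.693 at no, 1 to 5, 6 to 10 and over 10 huRPE65 UMIs.

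In the low-mito rod clusters the genes closest to mScarlet were PDE6G (0.362 and 0.366, right bleb first) and CKB, a creatine kinase (0.340 and 0.311). PDE6G and CKB were also among the leaders for coRPGR in those of the right hRPGR bleb, at 0.222 and 0.205. In cone-like cells the leaders for mScarlet were ENO2, PDE6H, CKB, GUCA1A and GUK1 in the right bleb (0.316 to 0.274 over 275 cells) and OPN1LW, MAP1LC3A, HSPA8, CIZ1 and GSTP1 in the left (0.308 to 0.299 over 134 cells). PDE6H and OPN1LW are cone phototransduction genes.

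The huRPE65 transgene was present in the left NHP1 library, where 34.5% of thinned rod-like cells (32.9 to 36.1) held it at a level of 614 CPM. The share was 20.8% in bipolar-like cells (17.9 to 23.9, at 87.3 CPM), 14.7% in cone-like cells and 41.2% in low-mito rod clusters. The median depth before thinning was 7181 UMIs in rod-like, 5921 in bipolar-like and 11784 in cone-like cells. Cone-like cells had 90.03 CPM, 6.82 times less than rod-like cells. Its Fano factor in rod-like cells was 10.6, against 1.16 for GRK1, and the highest 10% of cells held 71.6% of its UMIs. With GRK1 the correlation over 3469 thinned rod-like cells was 0.0069.

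UMIs counted as native RPE65 moved with huRPE65 in these rod-like cells. The correlation of 0.641 was the highest of all genes compared, before the MHC class I genes B2M at 0.236, MAMU-A at 0.231 and Mamu-B at 0.217. Mean native RPE65 per thinned cell was 0.0418 in 2273 cells without huRPE65, 0.395 at 1 to 5 huRPE65 UMIs, 2.195 at 6 to 10 and 4.47 above 10. Human and macaque RPE65 are near-identical copies, so that reads could be split between the features and levels are uncertain. RPE-like cells, where native RPE65 was high, held 1 huRPE65 UMI in 80 cells of the right NHP1 library. Those of the left NHP2 uninjected area held 4 in 60 cells, so native reads were rarely counted as huRPE65 there. The opposite direction cannot be seen from the RPE-like cells. In the left NHP1 library there were 3.68 huRPE65 UMIs per native RPE65 UMI in rod-like cells and 5.80 in low-mito rod clusters. The ratio was 2.51 in cone-like, 5.23 in bipolar-like and 4.18 in Müller-like cells and 4.69 in free RNA. Whether huRPE65 reads were counted as native RPE65 was not tested. Other RPE genes stayed low in the same groups, with BEST1 at 0.0035 UMIs per cell without huRPE65 and 0 above 10, and TTR at 0.0282 and 0.0248. Native RPE65 summed to 167 CPM in rod-like cells of this library, against 3.42 CPM in the right NHP1 library and at most 8.37 CPM in NHP2. In RPE-like cells, present with at least 20 cells in 3 libraries, it stood at 2734 to 3499 CPM.

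The last question was whether cell classes other than photoreceptors held transgene beyond free RNA. Free RNA held 3482 and 2251 CPM of coRPGR in the right and left hRPGR blebs, 56.9 and 58.4 CPM of mScarlet in the mScarlet blebs, and 65.1 to 132 CPM of GRK1 over all libraries. Every minor class with at least 20 cells lay below the free RNA of its own library in CPM. Medians were 541 and 148 CPM of coRPGR over 8 and 7 classes, and 8.24 and 8.87 CPM of mScarlet over 9 classes in each eye. Rod-like cells of the hRPGR blebs lay below it too, at 3400 and 1184 CPM of coRPGR, and those of the mScarlet blebs above it, at 279 and 224 CPM. A coRPGR level below free RNA therefore does not show that a class lacked the transgene. Minor classes here are all named classes other than rod-like and cone-like ones. GRK1 medians over minor classes ran from 6.41 to 27.3 CPM over the 8 libraries. The summed level of 10 rod genes (SAG, GNAT1, PDE6A, PDE6G, CNGA1, GNGT1, NR2E3, NRL, PDC and ROM1) gave a second measure. The ratio of a transgene to these genes in a class was divided by the same ratio in free RNA, so that 1 is the value where free RNA carries the transgene and rod RNA together.

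For mScarlet this value had a median of 0.916 over the 9 minor classes of the right bleb (0 to 1.69) and 0.729 over those of the left (0.30 to 1.16). Its interval included 1 for 4 and 7 of the classes, and lay above 1 for 3 and 0. The 3 were Müller-like, myeloid-like and plasma-like cells of the right bleb, where the GRK1 values of the same classes were 0.479, 0.558 and 0.549, with intervals below 1. In the left bleb no interval of a minor class was above 1, and that of plasma-like cells was below it (0.578, 0.374 to 0.853). For coRPGR in the right bleb the median was 0.910 over 8 classes (0.751 to 1.54). The intervals of amacrine-like and ganglion-like cells were above 1, where those of GRK1 were above 1 too. In the left bleb the median was 0.387 over 7 classes (0.118 to 0.860), with 6 intervals below 1. Rod-like cells had 0.713 and 0.152 for coRPGR in the right and left hRPGR blebs, and 0.933 and 0.904 for mScarlet in its blebs. A value below 1 thus does not show that a class lacked the transgene. The right uninjected area had a median of 0.423 for coRPGR over 7 classes, with no interval above 1. For mScarlet the values of Müller-like cells (1.34 right, 1.13 left) and myeloid-like cells (1.32 right, 1.16 left) were above 1 in both eyes, with left intervals that included 1 (0.898 to 1.40 and 0.914 to 1.45). Ganglion-like and plasma-like cells of the left hRPGR bleb were too few for a value of coRPGR.

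Cone-like cells were above the highest minor class of their library in 3 of the 4 injected areas, and in the left hRPGR bleb their interval overlapped that of RPE-like cells. The cone-like value was 33.0 for coRPGR in the right hRPGR bleb and 1.03 in the left, where the interval included 1 (0.982 to 1.09), and 14.5 and 33.0 for mScarlet. The left hRPGR value depended on the rod genes summed. It ran from 0.822 to 1.71 when each of the 10 was left out in turn, an alternative chosen after seeing the data. The rod gene list was also shortened after the results were known, and with the longer list the interval of this value had been above 1. The measure therefore does not settle whether left cone-like cells held coRPGR beyond free RNA. Without thinning, 125 of these 189 cells held 1507 coRPGR UMIs, and 33 cells had at least 10. The highest cell had 223, and the highest 10 cells held 781. Whether single left cone-like cells carried the transgene was not tested. GRK1, which cones transcribe, had 9.31 and 7.40 (hRPGR blebs) and 4.67 and 8.39 (mScarlet blebs). In the right uninjected area coRPGR in cone-like cells was at 0.238, below the free RNA measure, and GRK1 at 9.68. Rod-like cells of that library had 0.176 for coRPGR. For huRPE65 in the left NHP1 library the cone-like value was 1.78 and the median of 8 minor classes 1.19 (0.838 to 4.64). The highest, of ganglion-like cells, was 11.1 at a doubled doublet share. There, 5 classes had intervals above 1 (bipolar-like, amacrine-like, ganglion-like, Müller-like and myeloid-like cells), and for GRK1 4 of these 5 did as well.

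Free RNA and rod-like cells also differed in their ratio of transgene to GRK1. The right and left hRPGR blebs had 27.8 and 24.7 coRPGR UMIs per GRK1 UMI in free RNA, against 20.8 and 8.93 in rod-like cells, and the right uninjected area had 3.81 against 1.21. The mScarlet blebs had 0.795 and 0.897 mScarlet UMIs per GRK1 UMI in free RNA, against 1.99 and 1.74 in rod-like cells. coRPGR was thus over-represented in free RNA relative to GRK1 in these 3 libraries and mScarlet under-represented in both of its own.

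In the right mScarlet bleb, which held coRPGR too, the transgenes were compared within cells. Of 3501 rod-like cells, 168 had a coRPGR UMI and 2151 an mScarlet UMI, and 108 had both. The product of the 2 shares gives 103. Of 282 cone-like cells, 45 had coRPGR and 40 had both, where the product gives 40.7. This product takes no account of depth, over which the rod-like share with mScarlet rose from 31.4% in the shallowest to 88% in the deepest group. Whether the transgenes were unrelated within cells therefore cannot be read from these values.

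Across cell classes, the genes most like GRK1 were sought over 65 sums of class and library with at least 50 cells. Of 8604 genes with at least 10 CPM in rod-like cells, SPTBN5 (Pearson correlation of log2 CPM 0.98), PODXL (0.97), PROM1 (0.97) and IMPG1 (0.97) led. PROM1 shapes outer segment discs, and IMPG1 is a proteoglycan of the matrix between photoreceptors. The sums of a library share its free RNA. GRK1 levels by class had medians of 150.0 CPM in rod-like and 122 CPM in cone-like cells, with ranges over the 8 libraries of 129 to 291 and 102 to 143 CPM that overlap. Among other classes with at least 20 cells, the highest median was 35.6 CPM in RPE-like cells of 3 libraries (7.38 to 49.9), and bipolar-like cells had 10.6 CPM (5.21 to 25.0).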

How the data were processed

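The deposited count matrices hold UMI counts per barcode, not normalised. Per the submitters' processing notes the authors used Cell Ranger 8.0.1, with Mmul_10 and the transgene sequences as reference. A barcode counted as a cell from 1500 UMIs and 300 genes on, if mitochondrial genes held no more than 20%. Free RNA was taken from barcodes with 100 to 1000 UMIs. A doublet caller marked at most 0.0196% of a library, so the cells with the highest scores were removed at a share that grew with the number of cells (8604 cells, 9.37%). Cells were clustered with scanpy 1.11.5 and named from marker lists, with naming thresholds set after the clusters were seen, so differences from the study may come from rebuilt names. Clusters with a median mitochondrial share under 0.2% and rod markers stayed unnamed.

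Counts were summed per library and class and tested over all genes with edgeR 4.0.16 (TMM, quasi-likelihood, Benjamini-Hochberg, 6 NHP2 libraries), with DESeq2 1.42.0 as an alternative, both in R 4.3.3. Replicate numbers stand for the right and left eye of 1 animal, so they pair the libraries. Deviations of same-eye libraries correlated at -0.32, 0.28 and -0.22 in rod-like and -0.24, -0.11 and 0.05 in cone-like cells. For the split into high and low cells the transgenes were left out of the table. The files pair 16675 features with a symbol, and a RefSeq table named 503 more. Values of some listed genes, and an alternative that used one alone, are not reported here, and the rod reference sum was taken over 10 of 11 listed genes, a change made after the results were known. The members, gene lists and tests were chosen with earlier results of these data known. Named are the members, their native counterparts, listed genes that passed, and genes among the 5 most correlated with a transgene or with GRK1.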

Additional observations from a re-analysis of the deposited data

Results flagged for a closer look

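Transgene RNA appeared in libraries whose label names no such vector. The left NHP1 library, labelled uninjected, held 56451 huRPE65 UMIs, against 16 in the right NHP1 library. The right NHP2 uninjected library held 18290 coRPGR UMIs, against 1 in the left, and the right mScarlet bleb held 2127, against 32 in the left.

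The cone-like to rod-like ratio of coRPGR pointed in opposite directions in the eyes of NHP2. The log2 ratio was 1.87 in the right hRPGR bleb and -1.61 in the left, and the difference between the eyes was not tested.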

How the results depend on the processing

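GRK1 was called under no alternative run, with adjusted p of 0.422 or more. Its log2 fold change for hRPGR bleb against uninjected area in rod-like cells became 0.0010 at a doubled doublet share and 0.0044 with low-mito rod clusters counted as rod-like, and ranged from -0.16 to 0.11 when 1 library was left out. In cone-like cells it was -0.025 without a filter on low counts and ranged from -0.18 to 0.22. Leaving out 1 library gave -0.090 to 0.31 for mScarlet bleb against uninjected area and -0.0017 to 0.18 for mScarlet against hRPGR bleb in cone-like cells. For high against low cells it gave -0.011 to 0.050 in rod-like and -0.064 to 0.080 in cone-like cells, where the highest against the lowest 25% of cells gave 0.15 and DESeq2 0.013.

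Counts of genes called moved far more. For mScarlet bleb against uninjected area in rod-like cells 127 became 1119 with DESeq2, 1148 without filter, 12 with the eye as replicate block, 248 at a doubled doublet share, 41 with low-mito rod clusters, and 0 (without either mScarlet library) to 944 with 1 library left out. For hRPGR bleb against uninjected area 0 became 45 with DESeq2, 98 without filter and 0 to 171 with 1 library left out. For mScarlet against hRPGR bleb 3 became 117, 173, 0 with the block, 5 at a doubled doublet share, 0 with low-mito rod clusters (an alternative chosen after seeing the data) and 0 to 243. In cone-like cells the same comparisons went from 161 to 311 with DESeq2, 1131 without filter, 52 with the block and 26 to 382, from 3 to 43, 317 and 1 to 88, and from 26 to 78, 381 and 6 to 57. For high against low cells, 3 in rod-like cells became 0 for the outer 25% groups, 15 without filter and 1 to 8, and 7 in cone-like cells became 0 for those groups, 3 on full counts, 0 with DESeq2 and 0 to 9. The eye as a replicate block changed the calls of mScarlet (mScarlet against hRPGR bleb, rod-like cells) and of coRPGR (hRPGR bleb against uninjected area and mScarlet against hRPGR bleb, cone-like cells) and no other call of a member. Without a filter on low counts edgeR also called coRPGR in 3 cone-like comparisons and in rod-like cells of the mScarlet against the hRPGR bleb (adjusted p = 0.0374), and mScarlet in rod-like cells of the hRPGR bleb against the uninjected area (0.0337). With low-mito rod clusters counted as rod-like, mScarlet was not called against the hRPGR bleb (0.244).

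The mean correlation with GRK1 over both eyes was 0.218 without thinning and 0.136 at 4000 to 6000 UMIs for coRPGR in rod-like cells, and 0.212 without thinning in cone-like cells. For mScarlet it was 0.244 and 0.0291 in rod-like cells and 0.197 without thinning in cone-like cells, and the band held too few cone-like cells for a value. The mean share of cells with mScarlet was 59.4% without thinning and 18.3% at 2 or more UMIs in rod-like, and 91.1% and 29.9% in cone-like cells. With free RNA from 100 to 300 UMIs and at a doubled doublet share, the left cone-like coRPGR value over free RNA was 0.886 and 0.929. At the doubled share the left T/NK-like value was 1.19 in place of 0.246, and the horizontal-like one 0.881 in place of 0.511. The cause of these shifts was not tested. Depth limits GRK1, at under 1 UMI per thinned cell, and 2 eyes of 1 animal limit every area comparison.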

Other observations

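Free RNA differed in composition from cells. In the free RNA of the 8 libraries, 2 features without a gene symbol took 24.4% to 67.6% of UMIs, against 11.3% to 19.2% in rod-like cells. With these features and mitochondrial genes left out of the totals, an alternative chosen after seeing the data, all minor classes still lay below free RNA in CPM of the library's own transgene, with median ratios of 0.123 and 0.0325 for coRPGR in the right and left hRPGR blebs and 0.0512 and 0.0721 for mScarlet in the right and left mScarlet blebs.

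RPE-like cells were few in the injected areas. In the left hRPGR bleb 24 such cells held 20 coRPGR UMIs, and in the right 13 cells held 71.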
